A study of Mus musculus with 8 samples.

Results

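The olfactory receptor genes described here are those whose array probes gave a signal above background in mouse striatum. A probe was taken where its gene name began with Olfr and the scanner software flagged it as well above background (called detected below) in 4 or more samples of the 8. The members were thus chosen by measured detection flags of these samples, and their detection and brightness are descriptions with no test. This held for 84 probes of 83 genes, of 1197 olfactory receptor probes of 1100 genes on the array and of 39429 probes in all. Total RNA came from the striatum of adult male mice of strain C57Bl/6j, 4 wildtype and 4 labelled heterozygous for a gene trap in Brd2 (Brd2+/-), a BET protein that binds acetylated histones. All mice descended from crosses of heterozygous parents backcrossed to C57Bl/6J, and genotypes rest on PCR over the junction of the trap. Each of 4 Agilent arrays on 1 slide carried 2 mice of the same genotype, with replicates 1 and 3 in the green dye Cy3 and replicates 2 and 4 in the red dye Cy5. Each genotype therefore came from 2 arrays, and array and genotype can be separated only by the spread between the 2 arrays of a genotype.

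Olfactory receptors are G protein-coupled receptors and form the largest gene family of the mouse. In the nose, each sensory neuron expresses a single receptor allele, and an odorant that binds it raises cyclic AMP through the G protein subunit Gnal and adenylyl cyclase Adcy3, which opens the channel formed with Cnga2. Transcripts of some receptors are known from tissues outside the nose, and Gnal itself is abundant in the striatum, where it couples dopamine and adenosine receptors to Adcy5.

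The labels name the tissue as striatum, whereas a description field names the left atrium of the heart. All 17 striatal projection neuron marker genes on the array were detected in all 8 samples, among them Ppp1r1b (16.30 ± 0.50 log2 signal in wildtype, SD, n = 4) and Penk (15.67 ± 0.56). Of 17 atrial muscle genes, 5 were detected in all 8 samples and 7 in none. The 5 included the atrial light chain Myl4 (7.88 to 11.95 over the 8 samples), the myosin heavy chain Myh7 (10.84 to 12.10) and the atrial natriuretic peptide Nppa (6.98 to 8.14), and the 7 included the other atrial light chain, Myl7 (5.92 to 6.57), and the natriuretic peptide Nppb. Between 41.7% and 63.2% of all probes were well above background per sample, the lowest share being that of heterozygous replicate 3. The gene trap was not visible as a lower signal of its own gene. The brighter Brd2 probe read 11.46 ± 0.65 in wildtype mice and 11.75 ± 0.06 in those labelled heterozygous, with overlapping groups, and the dimmer probe read 7.13 ± 0.26 and 8.01 ± 0.18. The groups of the dimmer probe did not overlap, all 4 samples labelled heterozygous lying above wildtype, at a difference of 0.88 (SE 0.28, adjusted p = 0.498 in limma). Where these probes lie relative to the trap was not analysed here, so each direction below rests on the genotype labels.

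Probe sequences are shown first, because a probe of 60 bases is what was measured. The longest run of C and T in each is in capitals, since the detected probes were rich in these bases, as described further on. The first 5 are the probes with the highest wildtype means, followed by the probe of Olfr1349, the gene with the largest genotype difference.
Olfr173: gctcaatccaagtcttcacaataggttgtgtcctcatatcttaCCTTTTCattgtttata
Olfr544: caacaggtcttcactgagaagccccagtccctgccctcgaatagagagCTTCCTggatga
Olfr373: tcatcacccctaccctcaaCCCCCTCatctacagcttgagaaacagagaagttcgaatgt
Olfr1466: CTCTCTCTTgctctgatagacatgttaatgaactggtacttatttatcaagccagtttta
Olfr1368: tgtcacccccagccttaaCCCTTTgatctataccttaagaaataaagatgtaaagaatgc
Olfr1349: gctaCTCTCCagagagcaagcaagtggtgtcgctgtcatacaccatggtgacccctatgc

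The next probes are those of 2 genes in which 1 probe was detected in all 8 samples and another was not. The detected probe of Olfr373 is given above, and for Olfr629 the detected probe comes first. The Olfr373 probes overlap by 20 bases on the genome, and those of Olfr629 do not overlap.
Olfr373 other: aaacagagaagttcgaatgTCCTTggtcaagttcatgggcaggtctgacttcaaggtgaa
Olfr629 detected: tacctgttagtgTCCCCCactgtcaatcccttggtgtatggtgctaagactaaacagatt
Olfr629 other: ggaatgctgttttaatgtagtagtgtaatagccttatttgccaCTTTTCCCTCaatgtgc

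The last probes shown are those of the 3 genes other than Olfr1349 with the lowest unadjusted p among genes lower in the samples labelled heterozygous.
Olfr319: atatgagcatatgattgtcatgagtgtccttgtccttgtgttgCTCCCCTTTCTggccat
Olfr1131: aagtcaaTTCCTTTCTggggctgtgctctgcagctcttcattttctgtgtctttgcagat
Olfr1415: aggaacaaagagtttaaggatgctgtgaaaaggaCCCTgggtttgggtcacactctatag

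Few olfactory receptor probes gave a signal. Of the 1197 probes, 888 were well above background in no sample, 113 in 1, 89 in 2 and 23 in 3. The detected probes numbered 20 in 4 samples, 16 in 5, 13 in 6, 22 in 7 and 13 in all 8. The detected share was 7.02%, beside 56.6% of all probes on the array. The vomeronasal receptors, which sense pheromones, stood near this share for type 1 (14 of 178 probes, 7.87%) and lower for type 2 (3 of 122, 2.46%). None of 15 trace amine receptor probes was detected in at least 4 samples, and 5 of 40 taste receptor probes were (12.5%). These shares are descriptions, since the detection call chose the members.

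The share differed by sample and by dye. In the wildtype samples 63, 82, 53 and 73 of the 84 probes were detected (replicates 1 to 4), and in those labelled heterozygous 54, 80, 18 and 73. The Cy5 samples detected 73 to 82 of them and the Cy3 samples 18 to 63, and 5 probes (Olfr1175-ps, Olfr1380, Olfr209, Olfr608 and Olfr974) were detected in 4 Cy5 samples and no Cy3 sample. Heterozygous replicate 3, with 18 probes, was also lowest over the whole array, with 16450 probes detected against 21061 to 24905 in the others. With that sample left out, 83 olfactory receptor probes were detected in 4 or more of the remaining 7.

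The signal of these probes was low, with a median above that of the undetected probes in every sample. The median spot signal minus local background over the 84 probes lay between 72.5 scanner units (heterozygous replicate 4) and 148 (wildtype replicate 1). Over the 888 probes never detected it was 37.7 to 45.2 in Cy3 and 16.8 to 20.0 in Cy5. The negative control spots, which match no transcript, read 35.7 to 40.6 in Cy3 and 13.9 to 15.3 in Cy5. The members were thus 2.37 to 6.16 times the never detected probes, and the latter lay slightly above the negative controls in every sample. The median member sat between the 45.3 and 50.6 percentile of all probes of a sample, near the middle of the array. This separation follows from the rule and has no test.

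At the threshold of 4 samples the ranges of values on either side overlapped. Among probes at exactly 4 samples, those with the highest means were Olfr951 (8 values from 6.65 to 8.51), Olfr704 (6.63 to 8.06), Olfr1115 (6.66 to 7.53), Olfr288 and Olfr285. Among probes at exactly 3 samples, those with the highest means were Olfr1170, Olfr1232, Olfr94, Olfr774 and Olfr1130, and these are not members. The Olfr1170 probe read 10.49 and 9.40 in wildtype replicates 3 and 4, which shared an array, and 6.28 to 6.65 in the other 6 samples. Olfr774 read 9.22 and 7.33 in wildtype replicates 3 and 4, 8.14 and 6.59 in heterozygous replicates 3 and 4, which also shared an array, and 6.09 to 6.19 in the other 4 samples.

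The sequences of the detected probes differed from those of the undetected ones in a feature the rule did not use. C and T together made up 60.3% ± 7.2 of the bases of the 84 probes (SD over probes), 47.9% ± 10.8 of those of the 888 never detected and 49.3% ± 8.6 of those of all other probes. Both bases were more frequent in the members (C 26.2% against 18.8%, T 34.1% against 29.1%) and A was less frequent (21.8% against 31.4%). A run of at least 8 C or T was present in 45 of the 84 (53.6%), beside 18.7% of the never detected and 18.6% of other probes. The letters CCCC, searched on the strand of the probe, were in 25 of the 84 (29.8%) and in 5.29% of the never detected. GGGG was in 4 of the 84 (4.76%) and in 7.66% of the never detected. The C and T content was similar among members detected in 4 samples (60.7%) and in all 8 (59.9%).

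The share of olfactory receptor probes detected was larger at higher C and T content. It was 0.847% (5 of 590) below 50%, 6.25% between 50 and 55%, 12.2% between 55 and 60%, 10.8% between 60 and 65% and 23.4% (32 of 137) at 65% or more. Of the vomeronasal probes, 0 of 90 were detected below 50% and 4 of 25 at 65% or more. Among all probes other than olfactory receptors the detected share rose from 50.3% below 40% to 72.7% at 65% or more. The median signal of olfactory receptor probes never detected also rose, from 41.8 to 48.2 scanner units in Cy3 and from 18.3 to 22.8 in Cy5 between the lowest and highest content. The C and T content also differed by where a probe starts in the transcript. It averaged 60.9% at bases 500 to 700, where 13.8% of probes were detected, 45.7% at bases 700 to 900 (5.47% detected) and 42.6% at bases 900 to 1100 (0.671%). The detected share did not follow content throughout. Beyond base 1100 the content was 46.8% and 6 of 45 probes were detected (13.3%), while at bases 100 to 300 it was 60.2% and 8.22% were detected. Up to base 100 and at bases 300 to 500 it was 57.5% and 57.9%, with 12.1% and 8.62% detected. The part of base content in the detection of these receptors was not tested.

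Shared stretches and shared genes were also counted. A stretch of 16 bases in common with another olfactory receptor probe was present in 15 of the 84 (17.9%) and 41.0% of the never detected. Such a stretch in common with a probe outside the family was present in 12 of the 84 and 142 of the 888. RefSeq lists more than 1 gene for 5 of the 84 probes (5.95%) and for 5.74% of the never detected. The 5 are Olfr373 (also Olfr372), the Olfr456 probe detected in 7 samples (also Olfr457), Olfr1382 (also Olfr1373), Olfr1380 (also Olfr1382) and Olfr288 (also Olfr287), so the signal of these probes cannot be given to a single gene.

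The genes lay mostly where the family is clustered, with 20 probes on chromosome 7, 15 on 2, 9 on 11, 7 on 9 and 6 on 6. Against the number of olfactory receptor probes on each, this was 7.78% on chromosome 7, 4.87% on 2, 10.3% on 11, 4.79% on 9 and 21.4% on 6, where the array holds 28 such probes. By the RefSeq gene order, 19 of 80 placed members (23.8%) had a neighbouring protein-coding gene outside the olfactory, vomeronasal and trace amine receptors. The same held for 14.6% of the never detected. That neighbour was detected in all 8 samples for 7 members (8.75%), namely Olfr12, Olfr148, Olfr288, Olfr522, Olfr1368, Olfr1393 and Olfr1402, and for 5.74% of the never detected.

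Some genes were read by a pair of probes. Of 97 such genes, 88 had no detected probe, 8 had 1 and 1 had both, so the calls differed in 8 of the 9 genes with a detected probe. RefSeq lists a further gene for a detected probe of Olfr373, Olfr456, Olfr1382 and Olfr288, and no gene for that of Olfr75-ps1. Whether each pair read a single gene was not tested. The gene with both was Olfr456, whose probes (chr6:42436847-42436906 and chr6:42436887-42436946, mm9) overlap by 20 bases. The first was detected in 7 samples and read 6.97 to 7.70, and the second in 5 samples and read 6.79 to 7.12. The genotype difference (labelled heterozygous minus wildtype) was -0.48 (SE 0.25) for the first and 0.00038 (SE 0.24) for the second, with adjusted p of 0.696 and 1.00 in limma.

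In the other 8 genes 1 probe was detected and its partner in at most 2 samples. The Olfr629 probe at chr7:110888856-110888915 was detected in all 8 samples (8.17 to 9.08), and its partner 141 bases away, at chr7:110888715-110888774, in none (6.13 to 6.44). The Olfr373 probe at chr8:74624499-74624558 was detected in all 8 (10.06 to 10.68). Its partner, at chr8:74624539-74624598, was detected in 2 and read 8.78 in wildtype replicate 1, 5.89 to 6.20 in 6 others and gave an outlier spot in wildtype replicate 2. The detected probes of Olfr681 (6 samples), Olfr1382 (6), Olfr285 (4) and Olfr1115 (4) each had a partner detected in none, which in Olfr1382 and Olfr1115 adjoins it on the genome. The partners were detected in 1 sample for Olfr288 and in 2 for Olfr75-ps1. C and T content was lower in the detected probe than in its partner for Olfr288 (51.7% against 61.7%), Olfr1382 (51.7% against 56.7%) and Olfr75-ps1 (58.3% against 61.7%). This also held for Olfr629 and Olfr1115 (each 56.7% against 58.3%). The detected probe had the higher content in Olfr373 (56.7% against 41.7%), Olfr681 (60% against 28.3%) and Olfr285 (66.7% against 65%). No level was set between probes, since their hybridisation can differ.

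For 13 of the olfactory receptor probes the array holds 10 spots, and a probe counted as detected in a sample where any of its spots was. Of these 13 probes 4 were members (30.8%), beside 80 of the 1184 probes with a single spot (6.76%). The Olfr74 probe was well above background in 62 of its 80 readings over the 8 samples. The Olfr868 probe was so in 25 of 80, that of Olfr1307 in 15 and that of Olfr148 in 4. Only Olfr74 and Olfr868 had over 5 of 10 spots well above background in any sample, Olfr74 in 7 samples and Olfr868 in 2. In wildtype replicate 3 a single spot of Olfr1307 read 1488 scanner units, where the next highest of its spots read 77.5. Each of the 4 samples that detected Olfr148 did so through 1 spot of 10, and those that detected Olfr1307 through 1 to 5.

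Among the detected probes the 5 with the highest wildtype means were those of Olfr173, Olfr544, Olfr373, Olfr1466 and Olfr1368. The probe of Olfr173 (chr16:58796971-58797030) read 11.61, 10.54, 11.69 and 11.82 in wildtype replicates 1 to 4 and 11.50, 11.60, 11.30 and 11.52 in those labelled heterozygous. The probe of Olfr544 (chr7:109632628-109632687), a receptor for azelaic acid, read 11.46, 11.49, 11.02 and 11.21 in wildtype mice and 11.19, 11.35, 11.40 and 11.49 in those labelled heterozygous. In both genes the groups overlapped. The differences were 0.06 (SE 0.61) for Olfr173 and 0.06 (SE 0.24) for Olfr544.

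The probe of Olfr373 read 10.64, 10.68, 10.30 and 10.29 in wildtype mice and 10.06, 10.23, 10.36 and 10.53 in those labelled heterozygous. That of Olfr1368 (chr13:21234026-21234085) read 9.90, 9.71, 9.68 and 9.82 in wildtype and 9.53, 9.25, 9.87 and 10.03 in the others. Their groups overlapped too, at differences of -0.18 (SE 0.25) and -0.11 (SE 0.32). The probe of Olfr1466 (chr19:13416809-13416868) read 10.67, 10.59, 8.94 and 8.92 in wildtype and 9.56, 9.51, 10.27 and 10.36 in the others. Its values fell into pairs by array, the 2 mice of an array lying within 0.083 of each other and the 2 wildtype arrays 1.70 apart.

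The remaining probes detected in all 8 samples were those of Olfr1229, Olfr1252, Olfr629, Olfr522, Olfr1008, Olfr1402, Olfr549 and Olfr521, with wildtype means from 9.47 (Olfr1229) to 7.77 (Olfr521). The probe of Olfr521 (chr7:106915694-106915753) read 8.06, 8.04, 7.54 and 7.46 in wildtype mice and 8.21, 8.26, 8.32 and 8.20 in the others. That of Olfr549 (chr7:109703382-109703441) read 8.04, 8.12, 7.77 and 7.92 in wildtype mice and 8.27, 8.60, 8.53 and 8.76 in the others. These were the 2 of the 13 probes whose genotype groups did not overlap, both with the samples labelled heterozygous above wildtype. For Olfr521 the wildtype values fell into pairs by array.

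The groups overlapped for the rest. The probe of Olfr1229 (chr2:89122461-89122520) read 9.69, 9.57, 9.25 and 9.35 in wildtype mice and 9.36, 9.31, 9.14 and 8.86 in the others, the widest difference of these at -0.30 (SE 0.27). That of Olfr1252 (chr2:89561587-89561646) read 8.66 to 8.96 and 8.59 to 8.91. That of Olfr522 (chr7:147347974-147348033) read 8.24 to 8.58 in wildtype mice and 8.32 to 8.42 in the others. Those of Olfr1008 (chr2:85530201-85530260) and Olfr1402 (chr3:97214221-97214280) differed by -0.16 (SE 0.29) and -0.18 (SE 0.23).

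Over all members the wildtype mean ran from 6.13 to 11.42 with a median of 7.22, and the median SD was 0.16 among wildtype samples and 0.20 among those labelled heterozygous. Mice of the same array differed by a median of 0.080 to 0.123 log2 units over the members and 0.140 to 0.170 over all probes tested. These mice are the 2 channels of an array, which the loess step fitted to each other. Over the members, mice of the same genotype on different arrays differed by 0.216 to 0.282, and mice of different genotype by 0.186 to 0.385. Over all probes tested these were 0.323 to 0.394 and 0.304 to 0.442. The gap between the 2 arrays of a genotype was larger than the gap between genotypes in 60 of the 83 members with complete values (72.3%) and in 77.4% of all probes tested. An array gap compares means of 2 mice and a genotype gap means of 4, and a probe has 2 array gaps but 1 genotype gap. Array gaps are wider on average for that reason, so these shares do not rank array against genotype. The widest gaps after Olfr1466 were those of Olfr1443 (1.37 between the wildtype arrays) and Olfr704 (1.31 between the heterozygous arrays).

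Genotypes were compared with limma over 18432 probes, in a model holding dye as a fixed term and treating mice of 1 array as correlated. Of the 84 members 83 were tested, Olfr1467 having outlier spots in heterozygous replicates 1 and 2. None passed an adjusted p of 0.05, beside 0% of all probes tested, and the lowest adjusted p in limma was 0.432. An unadjusted p under 0.05 was reached by 10 members, 4 higher (3.88% of all probes) and 6 lower (4.1% of all probes) in the samples labelled heterozygous. Together these 10 of 83 stand beside 7.98% of all probes. The 10 include Olfr1349, which was chosen for its difference, and Olfr1131 and Olfr166, described below, which entered through wildtype samples alone. The genotype groups did not overlap in 19 members (16.9% of all probes), 7 of them higher (8% of all) and 12 lower (8.9% of all). The 12 lower also include Olfr1349, Olfr1131 and Olfr166, so this count rests in part on how members were chosen. The median difference was -0.059 over the members and -0.017 over all probes tested. 69 of the 83 lay within 0.5 of 0 (83.1%, beside 78.0% of all).

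Olfr1349 was chosen for its genotype difference, so its values are a description. Its probe (A_55_P2118259, chr7:6467259-6467318, minus strand, mm9) read 10.08, 9.98, 9.78 and 9.19 in wildtype replicates 1 to 4. In the samples labelled heterozygous it read 7.01, 7.03, 6.80 and 6.89. All 4 wildtype values lay above all others, and both arrays of each genotype agreed in this. The means were 9.76 ± 0.40 and 6.93 ± 0.11 (SD, n = 4 each), a difference of -2.83 (SE 0.37), or -3.03 among Cy3 samples and -2.63 among Cy5 samples. It was detected in all 4 wildtype samples and in 3 of the 4 labelled heterozygous, the exception being heterozygous replicate 3. It ranked at the 70.6 to 78.3 percentile of all probes in wildtype and at the 38.9 to 46.8 percentile in the others. The array holds no second probe of Olfr1349.

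Olfr1349 lies in a cluster of receptors on chromosome 7, and 7 further probes of the cluster were on the array. Olfr1347, at chr7:6441049-6441108, read 7.66, 7.77, 8.02 and 7.92 in wildtype mice and 7.51, 7.18, 7.10 and 7.14 in those labelled heterozygous. These groups did not overlap, at a difference of -0.61 (SE 0.28, adjusted p = 0.645 in limma). Olfr1350, at chr7:6523331-6523390, read 8.77, 8.98, 8.24 and 8.40 in wildtype and 8.04, 8.27, 7.94 and 8.05 in the others, and these groups overlapped at -0.52 (SE 0.25, adjusted p = 0.669). The probes of Olfr1344, Olfr1336, Olfr1346, Olfr5 and Olfr1348 were detected in 0 to 2 samples. The Olfr1348 probe, which lies between those of Olfr1347 and Olfr1349, read 6.39 to 6.57 in wildtype and 6.58 to 6.77 in the others.

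Olfr319 had the next largest difference. Its probe (chr11:58515786-58515845) read 8.92, 8.83, 8.77 and 8.81 in wildtype mice and 7.66, 7.80, 7.69 and 7.79 in those labelled heterozygous. The groups did not overlap, and the difference was -1.10 (SE 0.23, adjusted p = 0.432 in limma). Olfr1415 stood at -0.82 (SE 0.26), Olfr1131 at -0.78 (SE 0.24) and Olfr166 at -0.63 (SE 0.22), each with groups that did not overlap and, in limma, adjusted p of 0.498, 0.490 and 0.521. The Olfr1415 probe (chr1:94387395-94387454) read 7.30, 7.25, 7.71 and 7.45 in wildtype mice and 6.45, 6.29, 6.89 and 6.81 in the others. The values of Olfr166 (chr16:19486994-19487053) were 7.17 to 7.19 in wildtype mice and 6.46 to 6.60 in the others, near the level of undetected probes. Olfr1131 and Olfr166 were detected in all 4 wildtype samples and in none labelled heterozygous, so they entered through wildtype alone and had to differ. In the samples labelled heterozygous a probe was taken at the higher of its own signal and the lowest signal called detected in that sample, which was its own signal for both. On that basis, and only in the processing used here, the wildtype signal was at least 1.72-fold and at least 1.54-fold higher. These folds restate the differences of -0.78 and -0.63, so the bound refers to the undetected group only and does not allow for the SE. Over the alternatives described at the end, the difference ran from -0.68 to -2.02 for Olfr1131 and from -0.59 to -1.41 for Olfr166. Smaller folds thus occurred as well.

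Upward, Olfr75-ps1, a pseudogene, had 0.88 (SE 0.31) and Olfr96 had 0.80 (SE 0.25), with adjusted p of 0.526 and 0.492. Olfr96 read 7.03, 7.02, 7.35 and 7.42 in wildtype mice and 7.75, 7.86, 8.15 and 8.28 in those labelled heterozygous. The Olfr75-ps1 probe read 7.49, 7.80, 6.68 and 7.02 in wildtype mice and 7.81, 8.12, 8.26 and 8.32 in the others. Olfr1143 had 0.59 (SE 0.22), Olfr549 0.58 (SE 0.24) and Olfr1115 0.49 (SE 0.25), and adjusted p in limma was 0.548, 0.605 and 0.692. In each of these 5 the groups did not overlap. The undetected partner of the Olfr1115 probe read 6.00 to 6.17 in wildtype and 5.99 to 6.23 in the others.

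Part of the genes listed for the signalling and regulation of olfactory receptors gave a signal. Of 46 listed genes of olfactory signalling and receptor regulation, 45 were on the array, 34 were detected in all 8 samples and 40 in at least 4. Over the whole array 15890 of 39429 single probes were detected in all 8 samples, whereas a listed gene counted by its most detected probe. The listed genes with the highest means and a value in all samples included the phosphodiesterase Pde2a (15.09 ± 0.37 in wildtype), the G protein subunits Gnas (15.01 ± 0.53) and Gng7 (14.52 ± 0.49), and Adcy5 (13.95 ± 0.65). Adcy5 is the striatal cyclase named above, so these levels do not show the cascade of the nose. Gnal and Adcy3 were detected in all 8 samples but lacked a value in some. Among the genes that mark mature olfactory neurons, Omp was detected in 6 samples (7.56 ± 0.57 in wildtype and 7.02 ± 0.19 in those labelled heterozygous). The channel subunit Cnga2 was detected in all 8 (8.07 ± 0.14 and 8.15 ± 0.05), as were Ano2, the chloride channel of the olfactory cilia (9.61 ± 0.37 and 9.49 ± 0.46), and the G protein subunit Gng13. Of the chaperones that carry receptors to the cell surface, Rtp1 was detected in no sample and Rtp2 in 7 (7.30 ± 0.17 and 7.56 ± 0.17), and the membrane protein Stoml3 was detected in 1.

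Of these signalling genes 32 were tested, and none passed an adjusted p of 0.05 (lowest 0.519 in limma). An unadjusted p under 0.05 was reached by 1 gene of the 32, Adnp, a zinc finger protein, at 0.86, higher in the samples labelled heterozygous. Of all probes tested 7.98% reached it, 3.88% in that direction. The median difference over the 32 was 0.04. Of 16 listed genes of mature olfactory neurons, 8 were detected in all 8 samples and 13 in at least 4, and of 8 genes of olfactory bulb mitral and tufted cells on the array, 2 in all 8 and 4 in at least 4. The share of members detected was not set against these levels, and whether nasal or bulb tissue was in the samples was not tested.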

How the data were processed

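RNA from the striatum of 8 male mice was read on 4 two-colour arrays, and a sample's value is that of its own channel. The deposited scanner files hold raw spot and background intensity and a scanner-processed intensity, made with Agilent Feature Extraction 11.0.1.1, per the file headers. A further table deposited by the authors gives a linear ratio per spot. Set against the scanner files, 100% of its values equalled median signal minus background over the column's median within a relative 1e-04. Its direction and scale are thus known, and it is not centred across samples. Further steps are not given in the sources used here.

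From the deposited intensity, log2 signals were derived with limma 3.58.1 (R 4.3.3). Outlier-flagged background readings took the channel's median, followed by normexp (offset 50), loess within arrays and Aquantile between arrays. Spots of a probe were averaged, leaving out control spots and outlier flags. Probes well above background in at least 4 of 8 samples with a value in all 8 were tested (lmFit, duplicateCorrelation with the array as block, eBayes, Benjamini-Hochberg at 0.05), with dye as a covariate. The correlation within an array was 0.81. The fit was run on simulated data that held this same correlation for every probe. That simulation therefore could not show the effect of array spread particular to a probe. Precision is limited by the 4 arrays. The mice are separate, so p-values measure the spread between mice, with a single array correlation shared by all probes. A probe's own spread between the 2 arrays of a genotype is therefore not fully measured.

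The members, lists and tests were chosen with earlier results of these data known. Named are Olfr1349, probes detected in all 8 samples, the 5 with the highest wildtype means, the 5 with the lowest unadjusted p per direction, genes with several probes of which 1 is a member, and the 5 with the highest means at 4 and at 3 samples. Further members named were singled out after their values were seen. Accessions of 81 of the 84 probes matched RefSeq (assembly GRCm38.p6), from which only names and gene order were taken. Coordinates and probe sequences are those of the scanner files (mm9). Same-numbered mice deviated together in some pairs only (correlations 0.039 to 0.255), so the numbers were not taken as pairs. Of the listed signalling genes with the highest means, 1 is not reported here.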

Additional observations from a re-analysis of the deposited data

Results flagged for a closer look

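Within the groups of 4, a value far from the other 3 was found in 2 of 86 groups of the named probes. For 4 independent values chance gives such a value in about 1 of 20 groups. Mice of an array were correlated here, so the 2 shares cannot be compared. For Olfr173, wildtype replicate 2 read 10.54, where the other wildtype samples read 11.61 to 11.82. For Olfr166, heterozygous replicate 2 read 6.46, where the other samples labelled heterozygous read 6.59 to 6.60, and the probe was well above background in none of the 4.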

How the results depend on the processing

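The number of olfactory receptor probes detected was 84, and 309, 196, 48, 35 and 13 where at least 1, 2, 6, 7 or 8 of the 8 samples were asked for. It was 270 with the scanner's weaker flag, a signal positive and significant against background. It was 82 with outlier spots not counted, and, in settings chosen after seeing the data, 81 with most of a probe's spots required, 61 with 2 samples in each dye and 83 with at least 4 of the 7 samples other than heterozygous replicate 3. No probe passed the genotype comparison. Without the array block, mice of an array count as independent, and 529 of the 18432 probes and 5 of the 83 members tested passed. The members were Olfr1349, Olfr319, Olfr1131, Olfr166 and Olfr1143. Olfr1349 was chosen for its difference, and Olfr1131 and Olfr166 entered through wildtype samples alone, so their calls, here and below, are descriptions. Leaving out single samples gave 0 to 1 of all probes and 0 to 1 members, the call being Olfr1349 without wildtype replicate 4 (-2.98). Leaving out an array gave 22 probes without that of wildtype replicates 1 and 2, 14 without that of wildtype replicates 3 and 4, with 1 member (Olfr1349, -3.10), and 5 without that of heterozygous replicates 3 and 4. The cause was not tested. With the replicate number as a block no probe passed, with a lowest adjusted p of 0.273 in limma. The difference of Olfr1349 ran from -2.55 to -4.57 over its alternatives, the latter with the scanner's processed signals. With those signals 12 of the 30 differences of named probes moved by more than the SD within genotype, so their sizes depend on the processing. The adjusted p of Olfr319 in limma ran from 0.0204 without the array block to 1.00. Of 762 recomputed differences of 30 named probes, 44 changed sign. None of these were among Olfr1349, Olfr319, Olfr1131, Olfr1415, Olfr166, Olfr96, Olfr75-ps1, Olfr1143, Olfr549 and Olfr1115. Those probes were named for the lowest unadjusted p in these same samples, so their kept sign is no evidence for a difference. Signals near background and 2 arrays per genotype limit all of these values.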
